A study of Mus musculus with 9 samples.

Results

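The comparison described here is that of mouse embryonic stem cells (ESCs) after 18 h of induction of a forced E2A homodimer with the same cells before induction. It takes in 6 of the 9 RNA-seq libraries of the series, 3 at 0 h and 3 at 18 h, chosen by the time given in the sample labels. All libraries, those at 0 h included, came from ESCs that carry a doxycycline (dox)-inducible transgene, inserted upstream of Hprt by cassette exchange. The transgene encodes FLAG-tagged mouse E47, a splice product of the E2A gene, tethered by a flexible linker to another E47 molecule. The 0 h cells received no dox and the 18 h cells received dox at 1 µg/ml, both in LIF/serum medium, which holds ESCs in the pluripotent state. Cells that lack the transgene but received dox were not analysed here, so an effect of dox and an effect of the transgene cannot be told apart. No library came from cells kept for 18 h without dox. Time in culture therefore cannot be told apart from induction either. In their treatment text the labels name 24 h and 48 h, whereas the sample titles and treatment entries give the 18 h and 24 h used here. The remaining 3 libraries, taken at 24 h, shared the fit and served to show which changes of 18 h were smaller 6 h later.

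E2A belongs to the class I basic helix-loop-helix (bHLH) transcription factors, or E proteins, which bind E-box DNA as homodimers or as heterodimers with tissue-specific partners such as the proneural factors. Id proteins lack the basic region that contacts DNA, pair with E proteins and keep them off their sites. Many Id genes are targets of BMP signalling, and in ESC culture BMP or serum maintains Id expression and holds back entry into the neural lineage.

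Expression was read as FPKM, fragments scaled to the length of a gene and the depth of its library, and changes are log2 fold-changes of FPKM+0.1 fitted with limma. The fit had the replicate number (1 to 3) as a block, because libraries of different times that carry the same number deviated from their time points together. A gene was called upregulated or downregulated when its p, adjusted by the method of Benjamini and Hochberg, did not exceed 0.05 and it differed by 1 or more on the log2 scale. This scale understates changes where FPKM is low. In bulk RNA, fewer cells of a type and less RNA per cell cannot be told apart.

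The reads on genes numbered 22028363 to 24631564 in the 6 libraries. Markers of ESCs were present in all 6, with Pou5f1 at 268 to 433 FPKM, Sox2 at 79.7 to 98.9 FPKM and the lowest of the 10 markers checked, Klf4, at 4.96 to 9.94 FPKM. Of the markers of other cells, Ttr of extra-embryonic endoderm, Hbb-bh1 and Hba-x of embryonic blood and S100b of glia were listed at 0 in these 6 libraries. The summed FPKM of 13 glial and mature neuron markers was 3.84 to 4.74 at 0 h and 4.33 to 4.81 at 18 h. That of 13 endothelial and blood markers was 8.56 to 14 at 0 h and 7.09 to 11.3 at 18 h. That of 13 extra-embryonic endoderm markers was 39.2 to 43.4 at 0 h and 47.4 to 54.8 at 18 h, most of it from the basement membrane genes Lamb1 and Col4a1. That of 13 fibroblast markers was 31.4, 48.4 and 61.7 in replicates 1, 2 and 3 at 0 h and 47.4, 86.0 and 98.3 at 18 h. Most of this last sum came from Acta2, the smooth muscle actin. It was the only gene of these 4 lists called by limma (log2 fold-change 1.01, adjusted p = 0.000317), beside 1.71% of all genes upregulated. Its 0 h and 18 h libraries overlapped, its adjusted p without the block was 0.130, and its call was lost without replicate 2 of either time. By edgeR with the block 1 of 9 glial or neuron markers was upregulated and 2 were downregulated. Of 9 endoderm markers 1 was downregulated, and of 10 fibroblast markers 1 was upregulated. Over all 19210 genes of that test 505 were upregulated and 311 were downregulated. Col1a1, the main fibroblast collagen, was at 1.20 to 2.77 FPKM at 0 h and 1.09 to 2.48 FPKM at 18 h. The part of other cells in the results was not tested.

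Tcf3, the gene that encodes E2A, was measured at 41.2, 37.7 and 38.5 FPKM in replicates 1, 2 and 3 at 0 h and at 117, 107 and 107 FPKM at 18 h. All 18 h libraries lay above all 0 h libraries (log2 fold-change 1.49, s.e. 0.05, adjusted p = 2.10e-05). The transgene is of mouse sequence, so that its reads can fall on Tcf3 and were not separated from those of the endogenous gene. Hprt, the gene next to the inserted transgene, was at 9.89, 10.8 and 13.6 FPKM at 0 h and at 37.0, 42.3 and 43.6 FPKM at 18 h. The groups did not overlap and differed by 1.85 on the log2 scale (adjusted p = 3.96e-05). Hprt was named after its values were seen. The genes of the other E proteins, Tcf12 and Tcf4, were higher by 0.44 (adjusted p = 0.00748) and 0.31 (adjusted p = 0.0456) on the log2 scale, under the fold threshold. Neither passed without the block (adjusted p = 0.0581 and 0.152).

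Of the 17951 genes whose mean FPKM reached 0.1, 307 (1.71%) were upregulated and 199 (1.11%) were downregulated at 18 h. Without the block the counts were 239 and 130. With no minimum fold-change, 1941 genes (10.8%) were higher and 1929 (10.7%) were lower at the same adjusted p. Every 18 h library lay above every 0 h library for 2581 of the tested genes (14.4%) and below for 2461 (13.7%). Among the called genes the libraries did not overlap for 291 of 307 upregulated and 184 of 199 downregulated genes, which the calls favour by construction. Protein-coding genes made up 219 of the upregulated and 118 of the downregulated genes, and pseudogenes 21 and 20. Genes with less than 200 nt of exons, mostly small RNAs, made up 29 and 36. The median log2 fold-change was 0.00 over all tested genes, 1.41 over the upregulated and -1.3 over the downregulated genes. Changes of at least 2 on the log2 scale were seen in 59 upregulated and 24 downregulated genes. Many called genes were scarce, since a mean of at least 1 FPKM over the 6 libraries was reached by 116 of the upregulated and 105 of the downregulated genes. With each library left out in turn, 243 to 320 genes were upregulated and 127 to 241 were downregulated, and the lowest of the latter was reached without replicate 3 at 18 h. Replicate 1 was the lowest 0 h library in 151 of the 307 upregulated genes and in 6395 of the 17951 genes tested. It was the highest in 105 of the 199 downregulated genes and in 6017 of the genes tested. The annotated spans of 154 upregulated and 98 downregulated genes overlap another gene. How strand was used in the counting is not given in the sources used here, so the values of overlapping genes are uncertain.

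**Figure D1:**
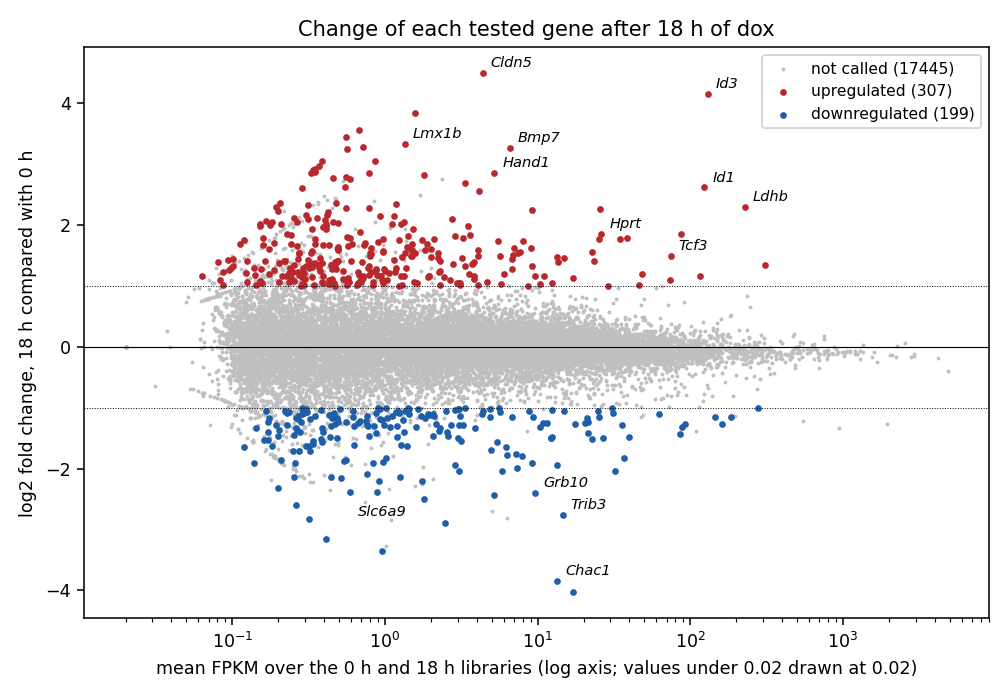
Log2 fold-change at 18 h compared with 0 h (vertical axis) against mean FPKM over the 6 libraries (horizontal log axis) for each of the 17951 genes tested, with the 307 upregulated genes in red, the 199 downregulated genes in blue and the fold threshold as dotted lines. Id3, Id1 and Ldhb combine a large rise with a mean above 100 FPKM, and most called genes lie at lower means.

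The inhibitors of E proteins were among the most strongly changed genes. Id3 was measured at 11.6, 18.8 and 11.9 FPKM in replicates 1, 2 and 3 at 0 h and at 243, 230.3 and 265 FPKM at 18 h. Its mean rose 17.4-fold, from 14.1±4.06 to 246±17.4 FPKM (mean±s.d., n=3). The fitted log2 fold-change was 4.15 (s.e. 0.17, limma adjusted p = 6.26e-05). Id3 (ENSMUSG00000007872) spans bases 136143497 to 136145755 of chromosome 4 in GRCm38, on the plus strand. Id1 was at 33.5, 48.8 and 25.2 FPKM at 0 h and at 219, 202 and 215 FPKM at 18 h. Id2 was at 38.9, 49.4 and 27.8 FPKM at 0 h and at 139.7, 138 and 132 FPKM at 18 h. In these 3 genes the 18 h libraries were clear of the 0 h libraries, and replicate 2 was the highest of the untreated libraries. The log2 fold-changes were 2.61 for Id1 (adjusted p = 0.000668) and 1.86 for Id2 (adjusted p = 0.000714). Id4, the least abundant member, was at 1.24, 1.21 and 0.610 FPKM at 0 h and at 3.95, 4.69 and 4.81 FPKM at 18 h, higher by 2.09 on the log2 scale (adjusted p = 0.00142). In FPKM, which accounts for length, the order of mean levels at 18 h was Id3, Id1, Id2 and Id4, with all libraries of each gene above all libraries of the next. At 0 h the order was Id2, Id1, Id3 and Id4, and the means of Id2 and Id1 (38.7 and 35.8 FPKM) differed by less than their s.d. (10.8 and 12). Together with Tcf3, 5 of the 7 E protein and Id genes were upregulated, beside 1.71% of all genes, and the 5 were still called with each of the 9 libraries left out.

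The largest log2 fold-change among the genes named by rule was that of Cldn5, which encodes a tight junction claudin best known from endothelium. It was at 0.208, 0.471 and 0.195 FPKM at 0 h and at 11.3, 7.01 and 7.13 FPKM at 18 h. These values rest on 7, 16 and 6 reads at 0 h and on 364, 247 and 244 reads at 18 h, and the rise was 4.49 on the log2 scale (s.e. 0.26, adjusted p = 0.000239). None of the other 17 tested genes of the claudin and tight junction list was called, beside 1.71% of all genes upregulated and 1.11% downregulated. Lmx1b, a LIM homeobox factor of the isthmus and roof plate, was at 0.129, 0.196 and 0.151 FPKM at 0 h and at 1.89, 2.54 and 3.18 FPKM at 18 h (log2 fold-change 3.33, adjusted p = 9.97e-05). Bmp7, which encodes a BMP ligand, was at 1.02, 1.04 and 1.42 FPKM at 0 h and at 10.2, 11.1 and 14.8 FPKM at 18 h. Its log2 fold-change of 3.26 (adjusted p = 1.35e-06) moved only between 3.24 and 3.30 when libraries were left out. Hand1, a bHLH factor of trophoblast, extra-embryonic mesoderm and heart, was at 1.3, 1.57 and 0.806 FPKM at 0 h and at 9.96, 10.1 and 7.56 FPKM at 18 h (log2 fold-change 2.85, adjusted p = 0.000128). In all 4 genes every 18 h library lay above every 0 h library.

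Other genes with leading rises differ in their known functions. Ldhb, a subunit of lactate dehydrogenase, was at 88.9, 69.9 and 72.4 FPKM at 0 h and at 469, 344 and 332 FPKM at 18 h. It rose by 2.30 on the log2 scale (s.e. 0.04, adjusted p = 1.59e-06), and of the 33 tested genes of glycolysis and hypoxia Vegfa was the only other call, a downregulated gene, beside 1.71% of all genes upregulated and 1.11% downregulated. Slc5a5, the sodium and iodide symporter, was at 6.50, 10.6 and 9.86 FPKM at 0 h and at 35.4, 45.1 and 47.0 FPKM at 18 h (log2 fold-change 2.25, adjusted p = 9.97e-05). Sprr1a, a cornified envelope precursor of epithelia, was at 0.884, 1.19 and 1.20 FPKM at 0 h and at 4.45, 7.42 and 9.69 FPKM at 18 h (log2 fold-change 2.56, adjusted p = 0.000228). Replicate 1 was the lowest of the 18 h libraries in both genes, and still above all 0 h libraries. Ppp1r16b, a regulatory subunit of protein phosphatase 1, had a log2 fold-change of 2.34 (adjusted p = 0.000479), and Btbd17 one of 2.24 (adjusted p = 0.00113). Each of the 12 genes with the largest rises was still called when any of the 9 libraries was left out.

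**Figure D2:**
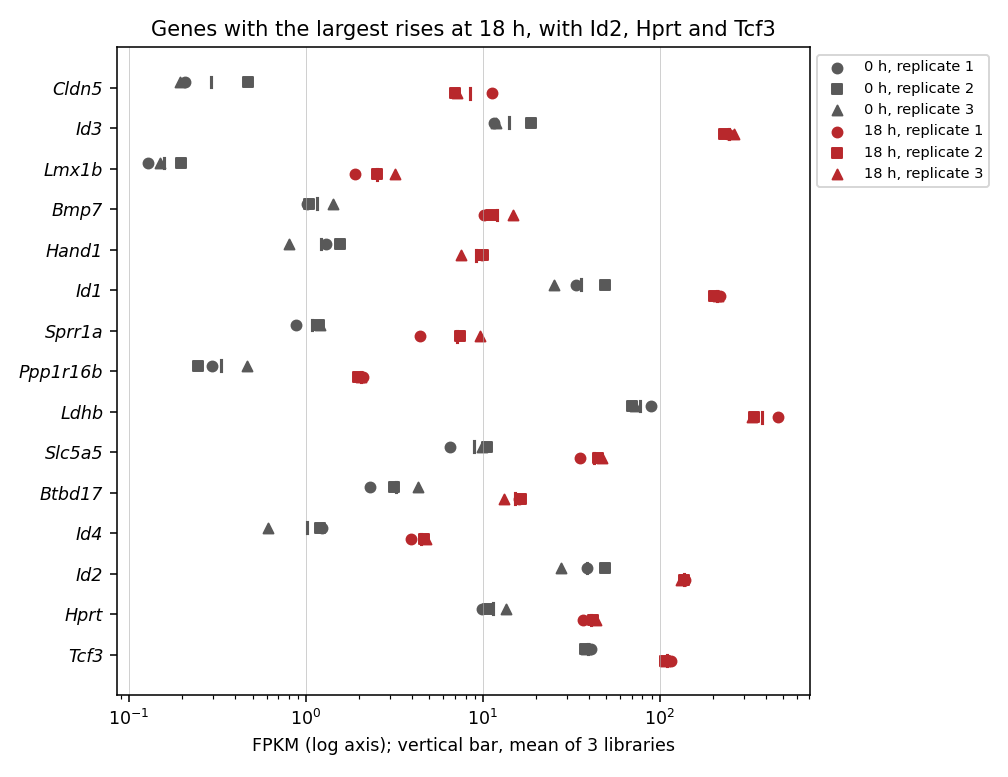
FPKM in each library (log axis) of the 12 genes named for the largest rises, followed by Id2, Hprt and Tcf3, with 0 h in grey, 18 h in red, replicates as symbols and the mean of 3 libraries as a vertical bar. In each gene all 18 h libraries lie to the right of all 0 h libraries.

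In the Notch pathway, 4 of 21 tested genes were upregulated and none was downregulated, beside 1.71% and 1.11% of all genes. The ligand gene Dll3 was at 3.24, 2.22 and 2.10 FPKM at 0 h and at 9.53, 8.57 and 7.43 FPKM at 18 h (log2 fold-change 1.74, adjusted p = 9.97e-05). Dll1, another ligand gene, rose by 1.54 on the log2 scale (adjusted p = 0.000560), and Lfng, a glycosyltransferase that modifies Notch, with 1.46 (adjusted p = 0.000116). The target gene Hey2 was called with 1.33 (adjusted p = 0.0131), and this call was lost without replicate 2 or replicate 3 at 18 h (adjusted p up to 0.0605). The receptor genes Notch1 and Notch2 and the target gene Hes1 passed the adjusted p with log2 fold-changes of 0.38, 0.56 and 0.58, under the fold threshold. At the adjusted p alone 10 of the 21 genes were higher and 4 were lower, beside 10.8% and 10.7% of all genes. Without the block 6 were higher, 4 of them called, and 1 was lower, so Notch1, Notch2 and Hes1 did not all pass there.

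In the BMP list 2 of 20 genes were upregulated, the ligand gene Bmp7 and Msx1, beside 1.71% of all genes. Msx1, a homeobox target of BMP signalling, had a log2 fold-change of 1.04 (adjusted p = 0.0209, and 0.102 without the block) and overlapping groups. Its call was lost without replicate 1 or 3 at 0 h and without any of the 18 h libraries. In the Wnt list 2 of 34 genes were upregulated, beside the same share of all genes. Wnt3, a ligand gene needed for primitive streak formation, was at 0.532, 1.57 and 1.5 FPKM at 0 h and at 2.16, 4.53 and 7.0 FPKM at 18 h. It was higher at 18 h in each replicate number (log2 fold-change 1.82, adjusted p = 0.000569), whereas the spread between replicates gave an adjusted p of 0.0663 without the block. Wnt11 was called at 0.169 to 0.233 FPKM, and its call was lost without any 1 of the 6 libraries. Aldh1a2, which makes retinoic acid, rose from 0.685±0.109 to 2.27±0.296 FPKM (log2 fold-change 1.59, adjusted p = 0.00108), the only call among 14 retinoic acid pathway genes by limma, beside 1.71% of all genes upregulated.

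Most called transcription factors of the nervous system were at low levels. Of 11 tested proneural and neuronal bHLH factors, 3 were upregulated and none was downregulated, beside 1.71% and 1.11% of all genes. Neurog3, a proneural factor of the endocrine pancreas and neural tube, was at 0.163, 0.433 and 0.269 FPKM at 0 h and at 1.87, 1.36 and 1.48 FPKM at 18 h (log2 fold-change 2.15, adjusted p = 0.00378). Atoh8 was at 0.0836, 0 and 0.0550 FPKM at 0 h and at 0.454, 0.512 and 0.495 FPKM at 18 h (log2 fold-change 2.05, adjusted p = 0.00258). Hes6, which promotes neuronal differentiation, was more abundant, at 7.58, 7.95 and 6.74 FPKM at 0 h and at 24.9, 18.5 and 16.3 FPKM at 18 h (log2 fold-change 1.39, adjusted p = 0.000555). In all 3 genes the groups did not overlap.

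Of 22 neural plate and neuroectoderm regulators, Lmx1b, Foxd4 and Sox1 were upregulated and none was downregulated, beside 1.71% and 1.11% of all genes. At the adjusted p alone 7 were higher and 3 were lower, beside 10.8% and 10.7% of all genes, and without the block 2 and 1. Of the list 10 genes had a log2 fold-change below 0, and the median was 0.02. Foxd4, a forkhead factor of the early neural ectoderm, had 0, 4 and 0 reads at 0 h and 92, 47 and 45 reads at 18 h. The groups were far apart, at 0 to 0.0711 FPKM and 0.793 to 1.72 FPKM, and the fitted log2 fold-change of 3.25 (adjusted p = 0.00177) depends on the pseudocount. Sox1, an early marker of neural ectoderm, was at 0.208, 0.293 and 0.552 FPKM at 0 h and at 0.715, 1.49 and 0.992 FPKM at 18 h (log2 fold-change 1.39, adjusted p = 0.00754). Its lowest 18 h library lay above its highest 0 h library, and without the block its adjusted p was 0.0541. Of 22 early neuron genes, Cbfa2t3, Ebf2 and Srrm4 were upregulated and none was downregulated, beside 1.71% and 1.11% of all genes, with log2 fold-changes of 2.09, 1.44 and 1.17, at mean levels of 0.573, 0.194 and 0.349 FPKM at 18 h. With no minimum fold-change 6 of the 22 were higher and 6 were lower, beside 10.8% and 10.7% of all genes, and the list median was 0.17. These counts were 3 and 1 without the block and 4 and 2 without replicate 1 at 18 h. Ebf2 lost its call without replicate 1 at 0 h and without replicate 1 or 3 at 18 h, and Srrm4 without replicate 1 or 2 at 18 h and without the block (adjusted p = 0.0541).

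Members of the Notch and proneural lists and the Id genes rose, and promoters of 3 of them are shown from RefSeq for GRCm38.p6. The windows run from 250 bases before to 50 bases after the gene start. The 3 shown all hold a match to the forms marked, so they do not stand for the rest of these genes. Capitals mark CAGCTG or CACCTG on either strand, forms of the E-box CANNTG that E proteins are known to bind. Id2 (chr12:25096043-25096342, minus strand) has a match 196 bases before its start. Dll3 (chr7:28301736-28302035, minus strand) has matches 228 and 7 bases before its start, and Hes6 (chr1:91413989-91414288, minus strand) 220 and 171 bases before it.
Id2: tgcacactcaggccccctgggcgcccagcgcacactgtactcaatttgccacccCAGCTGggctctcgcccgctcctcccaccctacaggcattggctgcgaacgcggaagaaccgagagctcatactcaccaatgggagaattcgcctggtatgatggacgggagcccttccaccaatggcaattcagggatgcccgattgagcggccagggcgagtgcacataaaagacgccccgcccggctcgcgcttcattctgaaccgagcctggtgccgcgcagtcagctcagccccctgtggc
Dll3: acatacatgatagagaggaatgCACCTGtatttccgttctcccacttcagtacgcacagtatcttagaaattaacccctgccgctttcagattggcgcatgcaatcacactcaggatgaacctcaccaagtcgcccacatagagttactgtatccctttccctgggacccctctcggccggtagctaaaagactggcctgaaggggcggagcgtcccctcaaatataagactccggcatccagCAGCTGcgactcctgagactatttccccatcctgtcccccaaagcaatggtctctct
Hes6: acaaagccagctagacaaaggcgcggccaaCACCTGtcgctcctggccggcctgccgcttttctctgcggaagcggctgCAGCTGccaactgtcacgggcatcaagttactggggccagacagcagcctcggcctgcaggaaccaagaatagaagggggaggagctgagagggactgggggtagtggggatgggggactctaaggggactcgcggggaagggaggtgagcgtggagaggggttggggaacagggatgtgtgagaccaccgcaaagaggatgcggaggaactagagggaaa
Of the windows found for upregulated genes, 73 of 175 (41.7%) hold either form. The share is 47.1% of the 102 windows of downregulated genes, 31.0% of the 11152 of tested genes and 32.6% of the 27025 in the table. Windows were found for 9 of the 12 genes with the largest rises, of which Sprr1a and Ppp1r16b hold either form. The letters are not in the windows of Id3, Id4, Cldn5, Lmx1b, Ldhb, Slc5a5 and Btbd17. A match is a description of the sequence and not a site of binding.

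The trophectoderm is the first epithelium of the embryo and founds the placenta. Of 13 tested genes of this lineage, 6 were upregulated and none was downregulated, beside 1.71% and 1.11% of all genes, and the median log2 fold-change of the list was 0.83. Cdx2, a master regulator of the lineage, was at 0.241, 0.516 and 0.671 FPKM at 0 h and at 1.78, 2.40 and 2.36 FPKM at 18 h (log2 fold-change 2.05, adjusted p = 0.000756). Gata2 rose from 0.105±0.0409 to 0.591±0.0416 FPKM (log2 fold-change 1.77, adjusted p = 0.00244), while Gata3 had a log2 fold-change of 0.10 (adjusted p = 0.713). Krt8, a keratin of simple epithelia, was abundant and went from 175±13.8 to 444±46.4 FPKM (log2 fold-change 1.34, adjusted p = 0.000165). Its partner Krt18 was higher by 0.83 on the log2 scale (adjusted p = 0.000354), under the fold threshold. Hand1, described above, Plac1 (1.39) and Esx1 (1.3) were the remaining calls, and that of Plac1 was lost without replicate 2 or replicate 3 at 18 h.

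The list for epithelial to mesenchymal transition (EMT) holds cadherins as well as transcription factors, and not all of its genes mark that transition. Of its 18 tested genes, 4 were upregulated and none was downregulated, beside 1.71% and 1.11% of all genes. Snai2, a zinc finger repressor, was at 0.186, 0.164 and 0.272 FPKM at 0 h and at 1.36, 1.40 and 1.36 FPKM at 18 h (log2 fold-change 2.28, adjusted p = 0.00146). Snai1, a related repressor of E-cadherin, had a log2 fold-change of 1.19 (adjusted p = 0.00114). Cdh3, which encodes P-cadherin, was at 17.9, 14.2 and 14.9 FPKM at 0 h and at 59.0, 52.7 and 48.8 FPKM at 18 h (log2 fold-change 1.77, adjusted p = 1.25e-05). Cdh11, a mesenchymal cadherin, was the remaining call, with 1.66 (adjusted p = 0.00380). Cdh1, which encodes E-cadherin, was at 214 to 244 FPKM at 0 h and at 244 to 264 FPKM at 18 h, higher by 0.16 on the log2 scale (adjusted p = 0.0265). The rises of Snai2 and Snai1 were thus not accompanied by a fall of Cdh1 in these libraries.

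**Figure D3:**
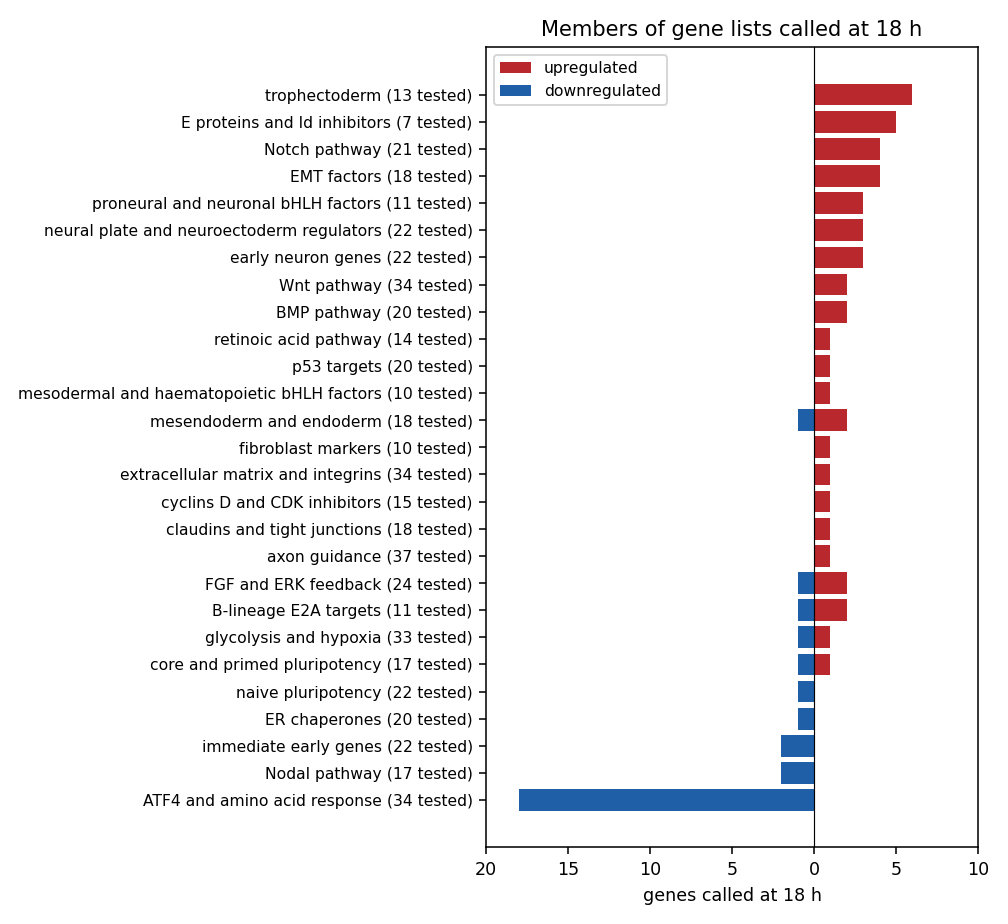
Number of genes called at 18 h in each of the 27 gene lists that held at least 1 called gene, with upregulated genes to the right in red, downregulated genes to the left in blue and the number tested beside each name. The list named for ATF4 holds 18 downregulated genes and the trophectoderm list holds 6 upregulated genes, and a gene can stand in several lists.

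The 3 lowest log2 fold-changes among the genes named by rule, those of Chac1, Trib3 and Slc6a9, belonged to the response to amino acid shortage. ATF4, a bZIP factor, is translated when amino acids are short or the endoplasmic reticulum is stressed, and it activates genes of amino acid synthesis, import and tRNA charging. Of the 34 tested genes of the ATF4 and amino acid response list, 18 were downregulated and none was upregulated, beside 1.11% and 1.71% of all genes, with a median log2 fold-change of -1.12 beside 0.00 over all genes. Chac1, which degrades glutathione, was at 35.4, 5.17 and 36.7 FPKM in replicates 1, 2 and 3 at 0 h and at 1.66, 1.23 and 0.884 FPKM at 18 h. Trib3, a pseudokinase, was at 32.5, 8.59 and 37.1 FPKM at 0 h and at 4.12, 2.89 and 2.59 FPKM at 18 h. In both genes replicate 2 was far below the other untreated libraries, yet all 0 h libraries were above all 18 h libraries. The log2 fold-changes were -3.85 for Chac1 (s.e. 0.59, adjusted p = 0.00605) and -2.76 for Trib3 (s.e. 0.39, adjusted p = 0.00444). Atf4 itself was at 267, 159.9 and 259 FPKM at 0 h and at 91.5, 94.4 and 91.4 FPKM at 18 h (log2 fold-change -1.27, adjusted p = 0.00258). Asns, asparagine synthetase, was at 138, 72.5 and 172 FPKM at 0 h and at 45.2, 41.0 and 46.6 FPKM at 18 h (log2 fold-change -1.44, adjusted p = 0.00439). Replicate 2 was again the lowest untreated library.

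Among enzymes of serine, glycine and folate metabolism, Psat1, Shmt2, Mthfd2 and Psph were downregulated with log2 fold-changes of -1.16, -1.10, -1.49 and -1.06. Of the proline pathway, Aldh18a1 and Pycr1 were downregulated, with -1.51 and -1.15. Of the tRNA synthetase genes, Nars was downregulated with -1.16. Sars and Gars were lower by the adjusted p with log2 fold-changes of -0.96 and -0.88, under the fold threshold, and Wars had -0.20 (adjusted p = 0.0579). Slc6a9, a glycine transporter, was at 3.52, 1.41 and 4.61 FPKM at 0 h and at 0.442, 0.312 and 0.539 FPKM at 18 h (log2 fold-change -2.50, adjusted p = 0.00325). Slc7a1, a carrier of cationic amino acids that is not on the list, had a log2 fold-change of -1.76 (adjusted p = 0.00392). Slc38a2, a neutral amino acid carrier on the list, had 0.05 (adjusted p = 0.375). The stress regulators Ddit3, Atf3 and Sesn2 had -1.21, -0.61 and -0.44 and did not pass (adjusted p = 0.0541, 0.149 and 0.0562). Ddit4, an inhibitor of mTORC1, was the only gene of the list that was higher by the adjusted p, from 41.2±12.7 to 77.9±11.6 FPKM (log2 fold-change 0.96, adjusted p = 0.00237). Pck2 and Gpt2, mitochondrial enzymes that make phosphoenolpyruvate and transfer the amino group of alanine and are not on the list, had log2 fold-changes of -1.99 and -1.91.

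Replicate 2 at 0 h stood apart from the other untreated libraries in these genes. In replicates 1, 2 and 3 the 35 listed genes summed to 2641, 1662 and 2833 FPKM at 0 h and to 1340.0, 1260.0 and 1262 FPKM after 18 h, without overlap between the groups. Replicate 2 was the lowest 0 h library in 120 of the 199 downregulated genes and in 6079 of the 17951 genes tested. Without it 23 genes of the list were downregulated and the median log2 fold-change of the list was -1.38. In each of the fits without replicate 1 or replicate 3 at 0 h 1 gene of the list was upregulated. The downregulated genes then numbered 11 and 9, with list medians of -0.97 and -0.90. Without replicate 1 or replicate 3 at 18 h they numbered 11 in each case, and without the block 15. Nupr1, a stress-induced chromatin protein, and Vldlr, a lipoprotein receptor, had log2 fold-changes of -2.21 and -2.15 and lost their calls in some of these fits. For Nupr1 these were the fits without replicate 1 or 3 of either time (adjusted p up to 0.0623), and for Vldlr those without replicate 1 at 0 h or replicate 1 or 3 at 18 h (adjusted p up to 0.0629). Psph, Pycr1 and Cebpb lost theirs in the same fits as Nupr1, Fgf21 and Gdf15 in these and further fits, and Psat1, Nars and Shmt2 fell under the fold threshold without replicate 3 at 0 h. Of the 24 genes named for the largest rises and the lowest values, Nupr1 and Vldlr were the only 2 that lost a call in this way. Why the library differed was not tested.

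**Figure D4:**
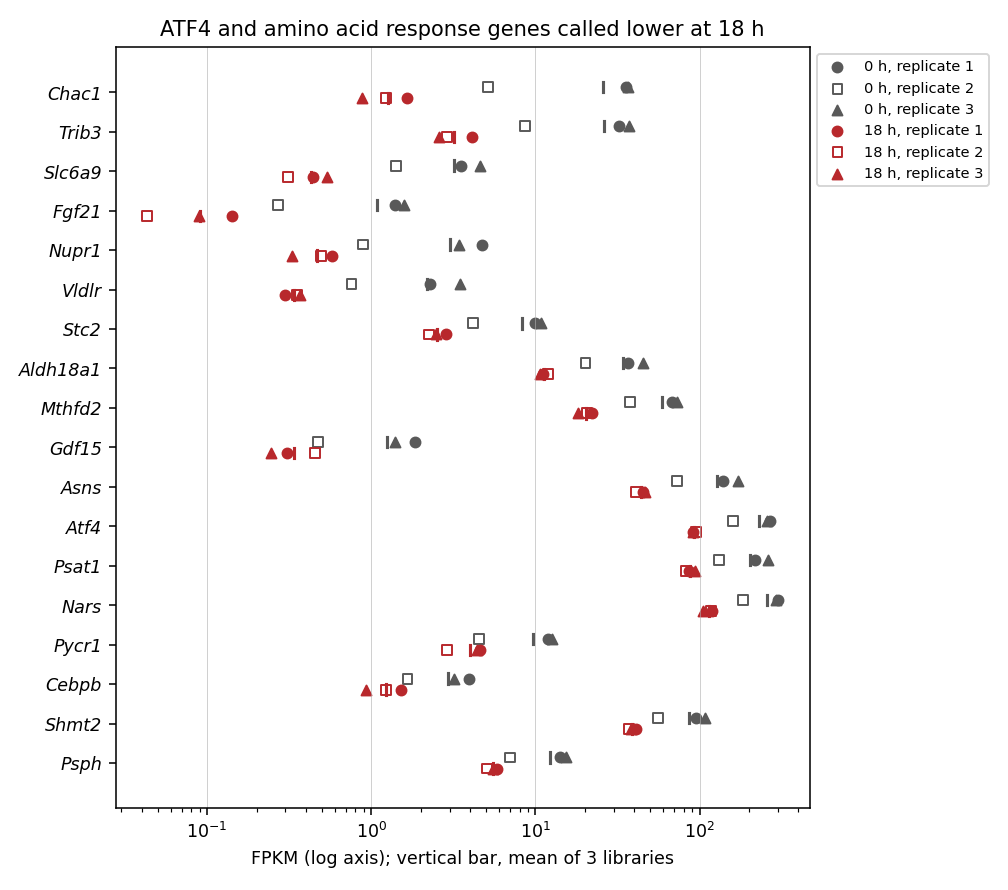
FPKM in each library (log axis) of the 18 genes of the ATF4 and amino acid response list that were downregulated at 18 h, with 0 h in grey, 18 h in red, replicate 2 as open squares and means of 3 libraries as vertical bars. Replicate 2 is the lowest 0 h library in each gene, and all 0 h libraries lie above all 18 h libraries except in Pycr1.

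Of the 18 downregulated genes of the list, the promoters of 3 are shown in the same RefSeq windows. The 3 shown all hold the motif marked, as does the window of Nupr1, whereas those of Slc6a9 and Vldlr do not. Capitals mark TGATGNAA on either strand, a short form of the element that ATF4 binds with C/EBP partners. Chac1 (chr2:119350992-119351291, plus strand) has a match 193 bases before its start, Trib3 (chr2:152344011-152344310, minus strand) 14 bases after it and Asns (chr6:7693160-7693459, minus strand) 23 bases before it.
Chac1: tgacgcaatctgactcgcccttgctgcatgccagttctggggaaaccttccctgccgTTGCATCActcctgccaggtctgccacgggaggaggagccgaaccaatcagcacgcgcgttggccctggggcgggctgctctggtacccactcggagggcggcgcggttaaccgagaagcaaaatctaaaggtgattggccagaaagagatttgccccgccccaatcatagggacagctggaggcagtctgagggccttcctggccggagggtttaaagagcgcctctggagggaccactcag
Trib3: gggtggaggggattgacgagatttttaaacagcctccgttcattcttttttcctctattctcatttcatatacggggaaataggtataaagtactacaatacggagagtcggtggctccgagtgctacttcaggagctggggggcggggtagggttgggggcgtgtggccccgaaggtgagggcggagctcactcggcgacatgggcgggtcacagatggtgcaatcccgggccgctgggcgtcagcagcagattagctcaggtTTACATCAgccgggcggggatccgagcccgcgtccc
Asns: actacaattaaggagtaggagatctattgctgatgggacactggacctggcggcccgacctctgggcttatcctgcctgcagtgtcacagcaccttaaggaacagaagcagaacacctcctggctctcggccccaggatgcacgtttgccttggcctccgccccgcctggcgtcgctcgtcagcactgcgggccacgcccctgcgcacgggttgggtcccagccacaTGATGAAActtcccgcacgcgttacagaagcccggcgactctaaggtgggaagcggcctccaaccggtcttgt
Windows were found for 30 of the 35 listed genes, and 9 of them (30.0%) hold the motif. The share is 15.7% of the 102 windows of downregulated genes, 2.86% of the 175 of upregulated genes, 2.15% of the 11152 of tested genes and 4.06% of the 27025 in the table. These shares describe the letters only.

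Outside this group, Grb10, an imprinted adaptor that restrains insulin receptor signalling, was at 19.0, 9.95 and 20.3 FPKM at 0 h and at 3.0, 3.02 and 2.68 FPKM at 18 h (log2 fold-change -2.40, adjusted p = 0.00176). Ccdc160 was at 5.54, 4.10 and 5.39 FPKM at 0 h and at 1.14, 1.25 and 0.996 FPKM at 18 h (log2 fold-change -2.05, adjusted p = 0.000421). Vegfa, the vascular growth factor, was at 8.42, 4.27 and 10.3 FPKM at 0 h and at 1.84, 2.38 and 2.30 FPKM at 18 h (log2 fold-change -1.69, adjusted p = 0.00513). In Grb10 and Vegfa replicate 2 was again well below the other untreated libraries, and in all 3 genes the groups did not overlap.

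Of 17 Nodal pathway genes, 2 were downregulated and none was upregulated, beside 1.11% and 1.71% of all genes. Tdgf1, the Nodal co-receptor Cripto, was at 144, 126 and 121 FPKM at 0 h and at 61.2, 49.8 and 51.6 FPKM at 18 h (log2 fold-change -1.27, s.e. 0.04, adjusted p = 1.25e-05). Lefty2, a secreted Nodal inhibitor that is itself a Nodal target, was at 14.5, 12 and 10.4 FPKM at 0 h and at 4.14, 3.70 and 2.66 FPKM at 18 h (log2 fold-change -1.79, s.e. 0.07, adjusted p = 3.96e-05). The ligand gene Nodal had a log2 fold-change of -0.10 (adjusted p = 0.436). Of 24 FGF and ERK feedback genes, Fgf4 was downregulated, and Fgf5 and the receptor gene Fgfr2 were upregulated, beside 1.11% and 1.71% of all genes. At the adjusted p alone 7 were lower and 4 were higher, beside 10.7% and 10.8% of all genes, with a list median of -0.10. Both the fit without the block and those without replicate 1 or 3 at 18 h gave 4 lower and 2 higher. Fgf4, the autocrine FGF of ESCs, was at 22.4, 13 and 14.9 FPKM at 0 h and at 10.4, 7.22 and 6.55 FPKM at 18 h (log2 fold-change -1.04, adjusted p = 0.000412), and it fell under the fold threshold without replicate 3 at 0 h or at 18 h. Fgf5, which marks the step out of naive pluripotency, was at 3.60, 7.73 and 7.01 FPKM at 0 h and at 10.8, 13.4 and 15.4 FPKM at 18 h (log2 fold-change 1.15, adjusted p = 0.00383), and had 0.93 without replicate 1 at 0 h. Fgfr2 had a log2 fold-change of 1.48 (adjusted p = 6.28e-05).

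Most pluripotency genes moved by less than the fold threshold. Fgf4 was the only called gene among 22 of naive pluripotency, beside 1.11% of all genes downregulated, and the median log2 fold-change of the 22 was -0.37. With no minimum fold-change, 11 of them were lower and 4 were higher at the adjusted p, beside 10.7% and 10.8% of all genes. Without the block 2 were lower and 1 was higher, and without replicate 1 or 3 at 18 h 5 were lower. Among the lower were Klf5, Tfcp2l1 and Nr0b1, with log2 fold-changes of -0.68, -0.69 and -0.78, of which the last 2 did not pass without the block (adjusted p = 0.128 and 0.195). Nanog, a homeobox factor of the naive state, was at 45.1, 34.5 and 42.1 FPKM at 0 h and at 62.8, 46.5 and 61.1 FPKM at 18 h. It was higher by 0.48 on the log2 scale (adjusted p = 0.000902, and 0.0680 without the block). Pou5f1, the central factor of pluripotency, was at 433, 336 and 346 FPKM at 0 h and at 328, 274 and 268 FPKM at 18 h. It was lower (log2 fold-change -0.35, adjusted p = 0.00149, and 0.126 without the block). Sox2 and Esrrb had log2 fold-changes of -0.07 and 0.02 and did not pass (adjusted p = 0.158 and 0.893). Of 17 core and primed pluripotency genes, Fgf5 was upregulated and Tdgf1 was downregulated, beside 1.71% and 1.11% of all genes. At the adjusted p alone 8 of the 17 were lower and 1 was higher, beside 10.7% and 10.8% of all genes. Without the block 4 were lower and 1 was higher.

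Changes of 18 h that were smaller at 24 h were sought by setting the log2 fold-changes of both times side by side. Both comparisons use the same 0 h libraries, and the genes were chosen on their values at 18 h, so a smaller value at 24 h is partly given by the choice. The log2 fold-change at 24 h was nearer to 0, or past it, for 149 of 307 upregulated genes (48.5%) and 140 of 199 downregulated genes (70.4%). With each library left out these counts were 103 to 143 and 80 to 160, and the latter was 83 without replicate 1 at 0 h and 80 without replicate 3 at 18 h. The median log2 fold-change of the upregulated genes was 1.41 at 18 h and 1.42 at 24 h, and that of the downregulated genes was -1.3 and -1.14. The direct comparison of 24 h with 18 h by limma passed the adjusted p for 8 of 17951 genes (0.0446%), and 2203 had an unadjusted p under 0.05. None of the upregulated genes with a smaller change at 24 h was among the 8. Of the downregulated genes 3 were, Lefty2 and the small nuclear RNA genes Gm22363 and Gm22935. By edgeR with the block on the reads recovered from the scaled CPM values, 157 of 19210 genes (0.817%) were higher and 56 (0.292%) were lower at 24 h than at 18 h. By that test 3 upregulated genes (Sprr1a, Fam212b and Sdc4) and 1 downregulated gene (Lefty2) were among those with a smaller change at 24 h.

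Lefty2 was at 8.32, 6.47 and 5.26 FPKM at 24 h, above all 18 h libraries and below all 0 h libraries. Its log2 fold-change from 0 h went from -1.79 at 18 h to -0.88 at 24 h, and the difference of 0.91 passed by limma (adjusted p = 0.0401) and by edgeR (adjusted p = 1.69e-05). Tdgf1 stayed low, with log2 fold-changes of -1.27 and -1.46. Sprr1a was at 2.44, 3.84 and 3.33 FPKM at 24 h, all under the 18 h libraries and above the 0 h libraries. The difference of -1.10 did not pass by limma (adjusted p = 0.0969) and passed by edgeR (adjusted p = 0.00112). Fam212b had log2 fold-changes of 1.35 and 0.88 (edgeR adjusted p = 0.0267), and Sdc4, which encodes the proteoglycan syndecan 4, 1.20 and 0.99 (edgeR adjusted p = 0.0373).

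The other genes named for a smaller rise did not pass either test of 24 h against 18 h. They were Nkx2-9, a homeobox factor (1.68 and 1.16), R3hdml (2.01 and 1.57), Cgnl1, a junction protein (1.5 and 1.20), Igsf9b (1.16 and 0.84), Gpx1, glutathione peroxidase (1.17 and 0.87) and the pseudogene Gm5380 (1.47 and 0.96). Igsf9b lost its call at 18 h without replicate 2 of either time. Of the genes named for a smaller fall, those other than Lefty2 did not pass either. Platr26, a long non-coding RNA of pluripotent cells, had log2 fold-changes of -1.83 at 18 h and -1.34 at 24 h, Gm11837 -1.32 and -0.89, and Nupr1 -2.21 and -1.56. Gnmt, a glycine methyltransferase, had -1.09 and -0.74, Cebpb, a bZIP factor, -1.14 and -0.80, Herpud1, of the unfolded protein response, -1.5 and -1.19, and Ctsw, a cathepsin, -1.02 and -0.72. All of these last 4 lost their call at 18 h when certain libraries were left out, and without the block Gnmt and Cebpb did not pass (adjusted p = 0.0653 and 0.0748).

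Most genes of cholesterol synthesis are known targets of the transcription factor SREBP2. By limma none of the 24 tested genes was called in the fit to all libraries, but 15 were lower at the adjusted p with no minimum fold-change and 0 were higher, beside 10.7% and 10.8% of all genes. By edgeR with the block 1 was downregulated, beside 311 of all 19210 genes. Limma called 2 as downregulated without replicate 1 and 1 without replicate 3 at 0 h, in fits that called 133 and 181 of all genes downregulated. The median log2 fold-change of the list was -0.40 at 18 h and 0.06 at 24 h. Insig1, which retains the SREBP machinery in the endoplasmic reticulum, was at 27.1, 34.9 and 30.7 FPKM at 0 h and at 15.7, 17.5 and 14.4 FPKM at 18 h. At 24 h it was at 28.9, 25.5 and 25.1 FPKM. The 18 h libraries were thus below all libraries of the other times, with a log2 fold-change of -0.95 from 0 h (adjusted p = 0.00160). Hmgcs1, which makes HMG-CoA, was at 85.7, 119.9 and 112 FPKM at 0 h and at 67.5, 72.3 and 64.7 FPKM at 18 h (log2 fold-change -0.62, adjusted p = 0.00566), and at 107, 108 and 107 FPKM at 24 h. Msmo1, a sterol oxidase, was at 18.8, 24.4 and 27 FPKM at 0 h and at 12.7, 16.1 and 15.3 FPKM at 18 h (log2 fold-change -0.66, adjusted p = 0.00227), and at 23.3, 24.3 and 26.6 FPKM at 24 h. Both were lowest at 18 h in every replicate number.

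In the direct comparison of 24 h with 18 h by edgeR, 17 of the 24 genes were higher at 24 h and 0 were lower, beside 0.817% and 0.292% of all genes. By limma Msmo1 passed (difference 0.75, adjusted p = 0.0482), while Insig1 (0.74, adjusted p = 0.0969) and Hmgcs1 (0.65, adjusted p = 0.118) did not. The number of listed genes lower at 18 h was 11 without the block. It was 18, 10 and 8 without replicates 1, 2 and 3 at 0 h and 7, 9 and 6 without those at 18 h. The median of the list was between -0.49 and -0.32 in these fits. The 18 h libraries are the only point between 0 h and 24 h, and whether they were handled apart from the others was not tested.

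**Figure D5:**
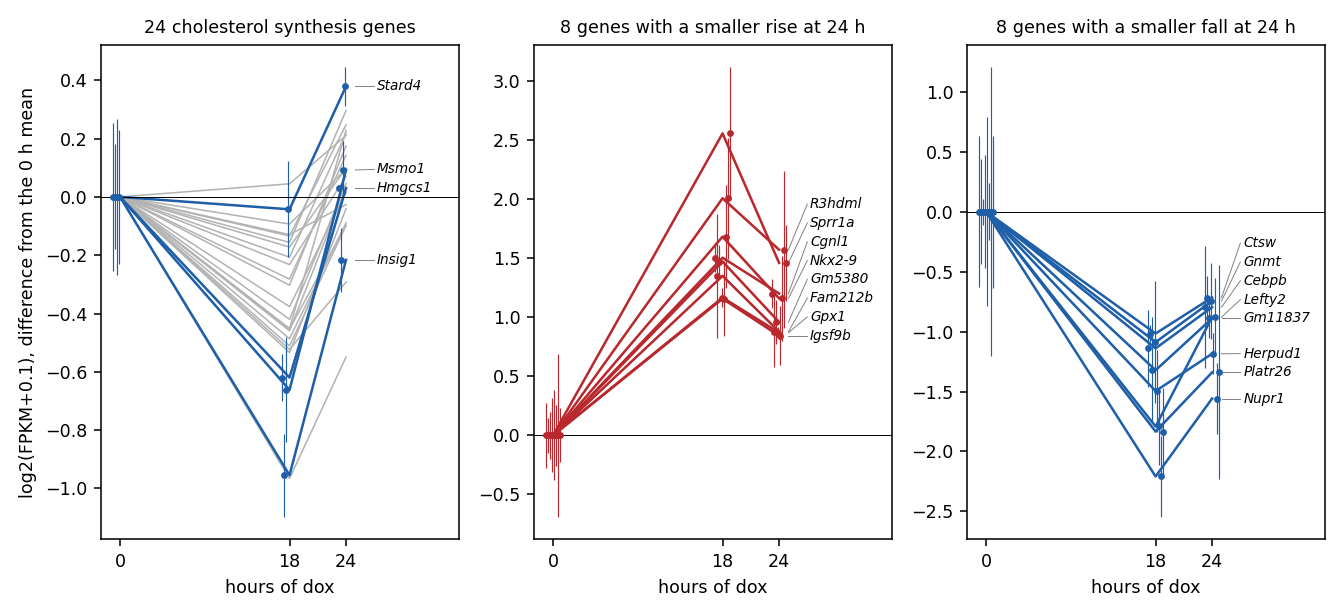
Mean log2(FPKM+0.1) before dox and after 18 h and 24 h of dox as the difference from the 0 h mean (vertical axes) for the 24 cholesterol synthesis genes, the 8 genes named for a smaller rise and the 8 named for a smaller fall at 24 h. Points are means of 3 libraries and vertical lines ± s.d., points are shifted sideways to separate genes, and grey lines are cholesterol genes without a name. The median of the cholesterol genes was -0.40 at 18 h and 0.06 at 24 h.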

How the data were processed

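Libraries were made with a stranded kit for messenger RNA. Per the methods of the study and its processing notes, reads were trimmed with cutadapt 1.9, aligned to GRCm38 with STAR and tested with edgeR 3.16.5 by the authors. The counting tool and the use of strand and of multiply aligned reads are not given in the sources used here. The authors deposited FPKM per gene and library (47729 genes) and a filtered table of 19210 genes with a signal per library, CPM scaled to an effective library size. That table also holds the authors' mean CPM, log2 fold changes and p-values of their own comparisons, deposited columns that were not used. All scaled CPM values (100.0%, tolerance 0.01) were whole multiples of what 1 read is worth, which gave whole reads per gene, 22028363 to 26471569 over the 9 libraries.

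The main test was limma 3.58.1 (R 4.3.3) with an intensity trend on log2(FPKM+0.1), over genes whose mean FPKM reached 0.1, with time and replicate number as terms and all 9 libraries, leaving 4 residual degrees of freedom. The block was used because deviations of libraries with the same number from their time point were correlated (r of 0.211 to 0.548 over 9 pairs and 11893 genes, against -0.399 to 0.110 for different numbers). The numbers stand in the sample titles, but that they mark a pairing comes from the data and not from the labels. Deviations cancel out within a time point, so positive r for the same number makes r for different numbers lean negative. The study names 3 biological replicates, and its supplement speaks of 3 biological experiments from which the sequenced samples came. The labels do not say whether they were separate cultures. The p-values of the main fit rest on the spread between these libraries that is left after differences between replicate numbers are removed. In the fit without the block those differences count towards the spread. Replicates differed beyond sampling noise (chi-square over degrees of freedom 5.39 to 16.3), so none was counted as a repeat of another.

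Genes named by rule were the 12 largest and 12 lowest log2 fold changes among called genes that averaged 1 FPKM or more, with groups that do not overlap and at least 200 nt of exons, and the 8 upregulated and 8 downregulated genes of this kind that moved furthest back towards 0 at 24 h. Members of 37 gene lists, Tcf3 and genes the study names were added. The genes, lists and tests were chosen with earlier results of these data known. The fit was tested on simulated data. Alternatives were edgeR 4.0.16 and DESeq2 1.42.0 on the recovered reads, other pseudocounts, filters, scalings and thresholds, and each library left out. Values of some single genes are not reported here.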

Additional observations from a re-analysis of the deposited data

Results flagged for a closer look

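The log2 fold-changes from 0 h differed between 18 h and 24 h for 8 genes by limma's test of 24 h against 18 h. Lefty2, the Nodal inhibitor described above, was higher at 24 h by 0.91 on the log2 scale. Msmo1, the sterol oxidase, was higher by 0.75. Acsl3, which activates long-chain fatty acids, was at 27, 31.0 and 33.5 FPKM before dox, 19.0, 20.5 and 22.1 FPKM after 18 h and 24.3, 26.7 and 29.7 FPKM after 24 h, a difference of 0.39 (adjusted p = 0.0482). All 3 went back towards their 0 h level. Etv4, an ETS factor downstream of FGF signalling, was at 34.7, 37.9 and 33.8 FPKM before dox, 26.4, 26.7 and 24.7 FPKM after 18 h and 19.9, 20.2 and 18.6 FPKM after 24 h, and the log2 difference of 24 h from 18 h was -0.41 (adjusted p = 0.0482).

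The other 4 are small RNA genes. The differences were 2.46 for Gm22363, 2.05 for Gm22935, -1.44 for Gm26493 and 3.08 for Mir219b. They rest on few reads. Gm22935 had 1, 2 and 1 reads after 18 h and 8, 7 and 5 after 24 h, and Gm26493 had 7, 11 and 12 and 2, 4 and 6, and neither passed by edgeR (adjusted p = 0.167 and 0.174). Gm22363 and Mir219b are not in the filtered table of reads, and at 18 h both were listed at 0 in all 3 libraries. The gap test for a sample far from the others of its group was not applied, since each group holds 3 libraries.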

How the results depend on the processing

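The main analysis called 307 genes up and 199 down at 18 h, of which 149 and 140 had a smaller change at 24 h. These 4 counts became 71, 56, 31 and 34 with a pseudocount of 1, which shrinks the change of low genes. They became 135, 103, 51 and 61 with a mean FPKM of at least 1, where fewer genes were tested. Thresholds gave 59, 24, 30 and 16 when a log2 fold change of 2 was required, and 1941, 1929, 992 and 1100 with no minimum. On the scaled CPM values limma with the block gave 519, 308, 243 and 221, and edgeR with the block on the recovered reads gave 505, 311, 224 and 219. Of the genes called, 267 of the upregulated and 167 of the downregulated genes were called by edgeR too. The cause of these differences was not tested. With only the 0 h and 18 h libraries, 120 genes were downregulated. Without the replicate block 130 genes were downregulated and 89 of them had a smaller change at 24 h. The upregulated genes then numbered 239, all of which were also called with the block. With libraries left out in turn the 4 counts were 243 to 320, 127 to 241, 103 to 143 and 80 to 160. An alternative added after the data were seen, leaving out genes whose exons span under 200 nt, gave 282 and 165.

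The genes with the largest changes named by rule and some further genes of the text, 61 in all, were followed through 1336 values, of which 0 changed direction. Genes chosen for large changes could hardly reverse in fits to the same libraries, so this count was largely fixed by the choice. Other genes named in the text, not counted here, lost calls in the fits given beside them. Among the 55 called genes 20 lost their call in some setting, in 59 values, of which 15 came with a pseudocount of 1, 28 with a library left out, 8 with only the 0 h and 18 h libraries, 4 with no replicate block and 0 with edgeR and the block. Depth limits the genes under about 1 FPKM, whose values rest on few reads.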

Other observations

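Of 20 p53 targets, Btg2, an antiproliferative gene, was upregulated (log2 fold-change 1.00, adjusted p = 0.00135), beside 1.71% of all genes. This call was lost without replicate 1 or 2 of either time, and by edgeR the gene was just under the fold threshold. With no minimum fold-change 12 of the 20 were higher at 18 h and 1 (Bbc3) was lower, beside 10.8% and 10.7% of all genes, with a median of 0.29 at 18 h and 0.10 at 24 h. A fit without the block gave 5 that were higher and 1 that was lower. By edgeR 5 of them (Mdm2, Gtse1, Pmaip1, Plk2 and Phlda3) were lower at 24 h than at 18 h, beside 0.292% of all genes. Plk2 had log2 fold-changes of 0.31 and -0.05, and Ccng1 0.51 and 0.36.

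Of 22 immediate early genes, Fosb (-1.63, adjusted p = 0.00533) and Fos (-1.05, adjusted p = 0.0199) were downregulated and none was upregulated, beside 1.11% and 1.71% of all genes. At the adjusted p alone 10 were lower and 4 were higher, beside 10.7% and 10.8% of all genes. The fit without the block gave 5 lower and 1 higher, and 3 were lower without replicate 1 or 3 at 18 h. The call of Fos was lost without replicate 1 or 2 at 0 h, without any 18 h library and without the block. Egr1 was lower, under the fold threshold, at -0.85 (adjusted p = 0.00451). In the list of 20 genes named for chaperones of the endoplasmic reticulum 1 was downregulated, Herpud1 of the unfolded protein response, beside 1.11% of all genes. At the adjusted p alone 4 of the 20 were higher and 1 was lower, beside 10.8% and 10.7% of all genes, with a list median of 0.13. Without the block 1 was higher and 1 was lower. By edgeR 5 were higher at 24 h than at 18 h, beside 0.817% of all genes. The call of Herpud1 was lost without replicate 1 or 3 of any of the 3 times.

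Of 11 tested genes known as E2A targets in B cells, Ighm, the immunoglobulin mu constant region, and Cxcr4, a chemokine receptor, were upregulated (log2 fold-changes 2.75 and 1.57), and Cd79b, a B cell receptor subunit, was downregulated (-1.3), beside 1.71% and 1.11% of all genes. The log2 fold-change was below 0 for 9 of the 11, with a median of -0.45. All 18 h libraries lay below all 0 h libraries for 6 and above for 2 of them, beside 13.7% and 14.4% of all genes. Ighm was at 0.0445, 0.0884 and 0.0732 FPKM at 0 h and at 1.81, 0.723 and 0.811 FPKM at 18 h. Gadd45g, a growth arrest gene, was the only call among 15 cyclins D and CDK inhibitors, beside 1.71% of all genes upregulated, from 3.89±0.794 to 11.5±1.66 FPKM (log2 fold-change 1.56, adjusted p = 0.000484). Of 26 cell cycle genes none was called, and 7 were lower and 1 was higher with no minimum fold-change, beside 10.7% and 10.8% of all genes. The number lower was 1 without the block and 3 without replicate 3 at 0 h or any 1 of the 18 h libraries.

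Of 18 mesendoderm and endoderm genes, Cdx2 and Lhx1 were upregulated and Cdx4 (-1.33) was downregulated, beside 1.71% and 1.11% of all genes. Lhx1 (1.09) lost its call without any 1 of the 6 libraries. Of 37 axon guidance genes Nrp1 (1.09) was upregulated by limma, beside 1.71% of all genes. This call was lost without replicate 3 of either time and without the block. Of 34 matrix and integrin genes Itga9 (1.16) was upregulated, beside the same share, and lost its call without replicate 2 at 0 h. With no minimum fold-change 18 of these 34 were higher and 2 were lower, beside 10.8% and 10.7% of all genes. Without the block 6 were higher and 2 were lower. For axon guidance these counts were 10 and 4, and 7 and 1 without the block.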
